A study of Mus musculus with 32 samples.

Results

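A set of 40 genes of the lysosome, of the proton pump that acidifies it and of the vesicle traffic that builds melanosomes was followed in RNA-seq of 32 primary mouse melanomas. The 40 genes were named from their known roles and found among the 50600 genes of the count and TPM tables by pairing each Ensembl identifier with its symbol. They comprise 4 membrane (V0) and 7 peripheral (V1) subunits of the vacuolar H+-ATPase (V-ATPase), 5 genes of the lysosomal membrane and of cholesterol export, 7 proteases, 8 genes of sugar and lipid breakdown, the autophagy receptor Sqstm1 and 8 genes of melanosomes and other lysosome-related organelles. All 40 passed the filter on low counts.

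The tumours fell into 4 groups of 8: Ecad males, Ecad females, ΔEcad males and ΔEcad females. Every group carried the human NRAS Q61K oncogene under the tyrosinase (Tyr) promoter, was heterozygous for the Cdkn2a deletion and was homozygous for floxed Cdh1, the gene of E-cadherin. The ΔEcad groups are described in the study as also carrying Cre under the Tyr promoter, whereas their genotype labels write Tyr::NRAS/° in that place. Oncogene and Cre are therefore driven in the melanocyte lineage, and a bulk tumour still holds host macrophages, fibroblasts, keratinocytes and vessels with intact Cdh1. The age of the mice is not given in the sources used here. Nothing in the labels names a sequencing or dissection batch.

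Lysosomes break down proteins, sugars and lipids with hydrolases that work at acid pH, and the V-ATPase provides that pH by pumping protons at the cost of ATP. Pigment cells build melanosomes from the same endosomal system, with Rab GTPases and the BLOC and HPS complexes routing cargo to the organelle. The transcription factors of the MiT/TFE family, Mitf, Tfeb, Tfe3 and Tfec, bind E-box motifs, and Tfeb and Tfe3 are known as regulators of lysosomal genes whereas Mitf directs the melanocyte lineage. Macrophages are also rich in lysosomes, so that a lysosomal transcript in bulk tumour RNA can come from either cell type. In such samples fewer cells of a type and less RNA per cell cannot be told apart.

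Library totals ranged from 24036333 to 63923086 counts. Levels are given as TPM, which is scaled for gene length and library size. Median Cdh1 was 145 TPM in Ecad males and 3.29 TPM in ΔEcad males, but females of the Ecad group had 30.6 TPM and those of the ΔEcad group 46.7 TPM, so Cdh1 RNA did not separate the female groups in the direction of their labels. There were 4 libraries that stood apart in marker or sex-linked genes. Dct, a melanin synthesis enzyme, stood at 4.98 TPM in the library labelled ΔEcad male 7 against a median of 11257 over the 32 tumours, and its melanocytic score, the mean of 8 marker genes in log2 CPM (counts scaled to the library's size), was −0.16 against 7.09 to 11.77 elsewhere. The library labelled ΔEcad female 3 had 3 counts or fewer for 7 of 10 macrophage markers and a macrophage score of −3.16, against 1.74 to 7.19 in the other tumours. Its low values were not limited to macrophage markers, as its score over endothelial markers was −4.02, against 3.44 to 6.00 in the other tumours. Xist stood at 6.41 TPM in the library labelled ΔEcad male 2, which had 0 counts over the Y-linked genes, and did not match its label. The library labelled ΔEcad female 1 had 101 TPM of Xist, as a female would, but also 92 counts over those genes. Fits that rest on these libraries are given with and without them.

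The members were expressed in all groups and covered a wide range of levels. By median over the 32 tumours, 23 of the 40 members lay at 100 TPM or more and the other 17 between 10 and 100 TPM. The most abundant was Gpnmb, a transmembrane glycoprotein of melanosomes and phagocytic cells, with a median of 2894 TPM and a range of 6.46 to 6930. The aspartic protease gene Ctsd followed at 2550 TPM (415 to 9905), the cysteine protease gene Ctsb at 2539 TPM (1039 to 8453) and Psap, whose product is cut into activators of sphingolipid breakdown, at 2239 TPM (1003 to 5029). These 4 ranges overlapped. At the other end stood Hps1, a subunit of the BLOC-3 complex, with a median of 17.9 TPM (4.90 to 33.9).

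Variation between tumours differed between members, also within a role. The SD of log2 CPM over the 32 tumours ranged from 0.44 for Hps5 to 2.14 for Atp6v0d2, with a median over members of 0.65, and it exceeded 1 in 8 members. These SDs include ΔEcad male 7 and were not computed without it. Gpnmb (SD 1.84), Rab38 (1.57) and Rab27a (1.25) had their lowest TPM there, at 6.46, 0.79 and 2.44. Their second lowest values were 388, 34.8 and 24.5 TPM. The 4 V0 subunits spanned SDs of 0.53 to 2.14, the 8 melanosome genes 0.44 to 1.84 and the proteases 0.55 to 1.75. The 7 V1 subunits spanned 0.51 to 0.83, and the 5 genes of the lysosomal membrane and cholesterol export 0.45 to 0.61. The heat map of all members shows the tumours behind these figures. ΔEcad male 7 had the lowest TPM of all 32 tumours in 14 members and lay below the median of the others in 36, and Ecad female 2 had the highest TPM in 13 members.

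**Figure D1:**
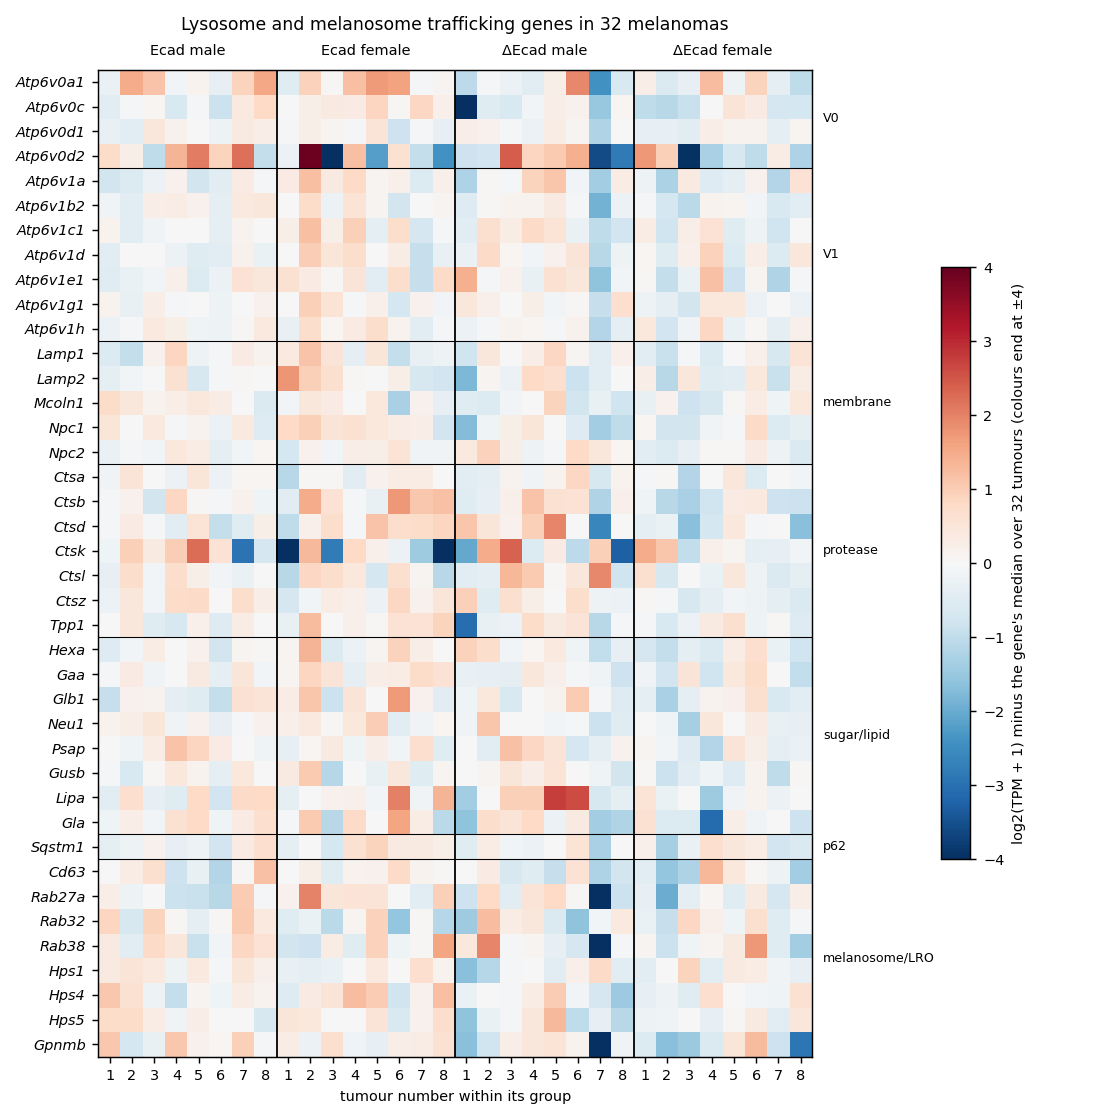
Each row is one of the 40 members, ordered by role, and each column one of the 32 tumours, ordered by group. The colour gives log2(TPM + 1) minus the gene's median over the 32 tumours, with the scale ending at 4 in either direction; the column of ΔEcad male 7 is low in 36 of 40 rows.

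The exchangeable d subunit of the V0 sector showed the widest range. Atp6v0d1, the ubiquitous form, had medians of 342 TPM (237 to 441) for Ecad males, 309 (182 to 460) for Ecad females, 339 (140 to 401) for ΔEcad males and 303 (244 to 387) for ΔEcad females. Atp6v0d2, the form known from osteoclasts, macrophages and kidney, had medians of 87.2 TPM (23.97 to 232), 33.4 (0.49 to 767), 59.3 (3.17 to 265) and 27.7 (2.22 to 165) in the same order. The d2 form therefore made up between 0.141% and 67.0% of the summed TPM of both forms, with a median of 15.7%, and the 4 groups overlapped. A like comparison of Rab32 and Rab38, paired GTPases that deliver enzymes to melanosomes, gave Rab38 1.97% to 93.7% of their sum, with a median of 68.6%. The lowest share of Rab38 was that of ΔEcad male 7, at 0.79 TPM, and the next lowest was 45.7% in ΔEcad female 8.

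**Figure D2:**
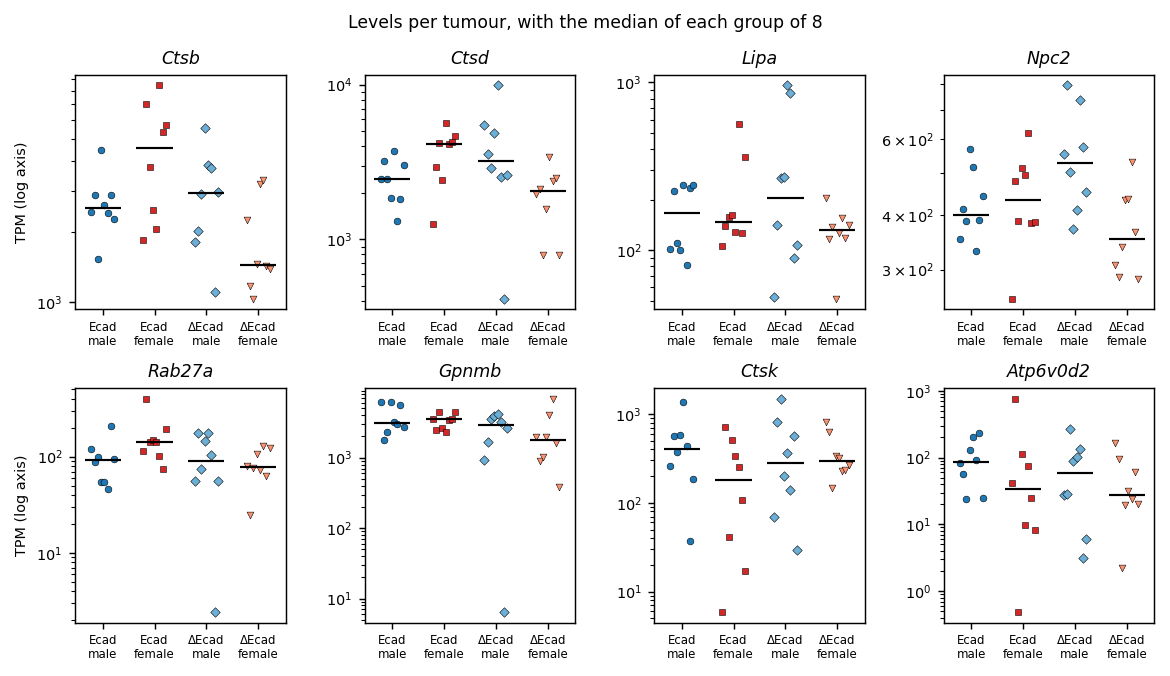
TPM on a log axis of 8 members in the 4 groups, with 1 point per tumour and a line at each group's median. The groups overlap for every gene, and Ctsb is shifted down in ΔEcad females (median 1444 TPM) against Ecad females (median 4558 TPM).

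Promoter sequence was read for the members because the MiT/TFE factors bind the E-box CACGTG. The set of RefSeq windows used here ran from 250 bases before to 50 after the start (build GRCm38.p6) and held 32 of the 40 members. It held no window for Atp6v0d2, Atp6v1b2, Atp6v1c1, Atp6v1g1, Atp6v1h, Ctsb, Npc1 and Rab38. The palindrome CACGTG occurred in 13 of the 32 (40.6%), against 2187 of 27025 genes with such a window (8.09%). The longer palindrome TCACGTGA, which contains CACGTG, occurred in 6 of the 32 (18.8%), namely Atp6v0d1, Atp6v1a, Ctsa, Ctsd, Gla and Mcoln1, against 304 of all genes (1.12%). The M-box core TCATGTG, read on both strands, occurred in 5 of the 32 (15.6%), against 1165 of all genes (4.31%). A match describes the letters of the window only and was not tested as a binding site. The stretches below are those of the protease gene Ctsd, the lysosomal calcium channel gene Mcoln1, the membrane glycoprotein gene Lamp1, the catalytic V1 subunit gene Atp6v1a and the alpha-galactosidase gene Gla, shown because they carry the long palindrome or several E-boxes. Capitals mark CACGTG or TCACGTGA, and each stretch is written 5′ to 3′ on the gene's strand.
Ctsd, chr7:142387890-142387955, minus strand: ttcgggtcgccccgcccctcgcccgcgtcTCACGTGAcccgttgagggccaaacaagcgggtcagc
Mcoln1, chr8:3500418-3500509, plus strand: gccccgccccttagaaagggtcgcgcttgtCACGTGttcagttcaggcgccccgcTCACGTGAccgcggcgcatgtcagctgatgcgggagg
Lamp1, chr8:13159070-13159160, plus strand: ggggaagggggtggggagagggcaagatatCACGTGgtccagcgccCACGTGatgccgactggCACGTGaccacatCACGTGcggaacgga
Atp6v1a, chr16:44139355-44139420, minus strand: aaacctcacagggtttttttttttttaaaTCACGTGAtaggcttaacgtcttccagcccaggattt
Gla, chrX:134601164-134601255, minus strand: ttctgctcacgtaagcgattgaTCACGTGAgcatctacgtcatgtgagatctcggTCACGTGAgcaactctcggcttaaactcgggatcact

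In females, the comparison of ΔEcad with Ecad asked whether loss of E-cadherin in the melanocyte lineage went with a change in these genes. Estimates were lower in ΔEcad for 38 of 40 members, with a median log2 fold change of −0.43 against −0.02 over the 17717 genes tested, but none passed the test. To be called, a gene needed an absolute log2 fold change over 1 and, in edgeR's quasi-likelihood test, p under 0.05 after Benjamini-Hochberg adjustment. In this comparison 1.2% of all genes were called, a share that rested on single libraries and on the method. It was 0.0168% without ΔEcad female 1, 0.563% without ΔEcad male 2, 2.43% without ΔEcad male 7 and 2.69% without ΔEcad female 3. With all libraries it was 7.23% under DESeq2 and 0.00564% under limma voom, and with only the female tumours in the edgeR fit 0.00635%. At an unadjusted p under 0.05 the members counted 6, all lower in ΔEcad, which is 6 of 40 against 15.3% of all genes. By role, the estimate was lower for all 11 V-ATPase members, all 8 genes of sugar and lipid breakdown, all 5 of the membrane and cholesterol export group, 6 of 7 proteases and 7 of 8 melanosome genes. Ctsk and Rab32 were the 2 with a higher estimate.

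Ctsb, a cysteine protease (ENSMUSG00000021939, chr14:63122462-63145923, plus strand, GRCm38), stood first. Its lowest, median and highest TPM were 1852, 4558 and 8453 in Ecad females and 1039, 1444 and 3345 in ΔEcad females, so that the groups overlapped in part. In log2 units ΔEcad females lay at −1.33 against Ecad females (SE 0.38, edgeR adjusted p = 0.0591). DESeq2 called it (adjusted p = 0.0086) along with 7.23% of all genes, and edgeR did so without ΔEcad male 7 (adjusted p = 0.0430), which is not one of the tumours compared but enters the shared estimate of spread. With keratinocyte, melanocytic and macrophage scores as covariates the estimate was −1.103 (edgeR adjusted p = 0.487). The gene overlaps Fdft1, and the strand of counting is not stated, so that its counts carry that uncertainty.

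Npc1, the membrane-bound exporter of lysosomal cholesterol, came next at −0.60 (SE 0.26, edgeR adjusted p = 0.236), with medians of 69.2 TPM (28.7 to 98.4) for Ecad and 42.0 TPM (29.7 to 85.0) for ΔEcad females. Atp6v1a, the catalytic V1 subunit whose promoter is printed above, followed at −0.65 (SE 0.29, edgeR adjusted p = 0.252), with medians of 113 TPM (63.6 to 216) and 77.2 TPM (38.2 to 139). Both ranges overlapped. The 3 members followed in every comparison for their known place in pigment cells, macrophages or osteoclasts had wide errors. Gpnmb was at −0.53 (SE 0.60, edgeR adjusted p = 0.762), the collagen-cleaving protease gene Ctsk at 0.64 (SE 0.70, edgeR adjusted p = 0.752) and Atp6v0d2 at −1.16 (SE 0.90, edgeR adjusted p = 0.607). Mitf itself was lower in ΔEcad females, at −1.26 (SE 0.51, edgeR adjusted p = 0.196), with medians of 115 TPM (30.4 to 590) for Ecad and 65.5 TPM (21.3 to 179) for ΔEcad. Tfec was at 1.56, Tfeb at −0.61 and Tfe3 at −0.01, none called.

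The direction over the members was the same on the deposited TPM scale, where limma on log2(TPM + 1) gave 38 of 40 lower and a median of −0.40 against 0.04 over all genes. Without the 4 libraries that stand apart, 34 of 40 were lower, with a median of −0.36. Markers of other cells also differed in their estimates, none of them called. All 8 keratinocyte markers had a positive estimate, with a median of 5.29 on the log2 scale and 7 of 8 at an unadjusted p under 0.05. All 8 fibroblast markers had a positive estimate with a median of 1.40, and all 8 melanocytic markers a negative one with a median of −0.60. The keratinocyte score ranged from −3.94 to 5.76 in Ecad females and from −3.43 to 10.59 in ΔEcad females. With keratinocyte, melanocytic and macrophage scores as covariates 33 of 40 members had a lower estimate in ΔEcad, with a median of −0.33.

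In males the estimates were mixed and depended on the scale. edgeR gave 29 of 40 members higher in ΔEcad, with a median of 0.24 against 0.11 over all genes, whereas log2(TPM + 1) gave 14 of 40 higher, with medians of −0.16 for the members and −0.16 for all genes. No member was called, and 0% of all genes were. Under edgeR 4 members reached an unadjusted p under 0.05, all higher, against 10.2% of all genes. Npc2, the soluble cholesterol carrier of the lysosome (ENSMUSG00000021242), was at 0.72 (SE 0.28, edgeR adjusted p = 0.427), with medians of 401 TPM (330 to 567) in Ecad males and 527 TPM (371 to 797) in ΔEcad males. Lipa, the acid lipase (ENSMUSG00000024781), was at 1.16 (SE 0.47, edgeR adjusted p = 0.442), with 167 TPM (81.5 to 243) and 205 TPM (52.8 to 961). Ctsd was at 1.03 (SE 0.45, edgeR adjusted p = 0.453), with 2451 TPM (1312 to 3734) and 3211 TPM (415 to 9905).

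The groups overlapped for each of these 3 genes, and the ΔEcad males were the wider group. Gpnmb was at −0.46, Ctsk at 0.13, Atp6v0d2 at −0.24 and Mitf at 0.32, none called. Without ΔEcad male 7 the count of higher members was 32 and the median 0.36, and without ΔEcad male 2 it was 24 and the median 0.08. ΔEcad male 1 had a scaling factor of 0.696 under TMM, edgeR's correction for library composition. Its member values lay 1.09 lower on the TPM scale than on the CPM scale in log2, relative to the median tumour. It held the lowest TPM of 6 members, among them Atp6v0c at 2.09 against a next lowest of 27.8. No fit of the males, or of the sexes in ΔEcad tumours, left it out, so its weight there was not tested.

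Between the sexes the members were also not called. In Ecad tumours edgeR gave 31 of 40 higher in females, with a median of 0.17 against 0.05 over all genes, and 0.0508% of all genes were called. On log2(TPM + 1) 26 were higher, with a median of 0.12 against −0.06 over all genes. Ctsb was at 0.89 (SE 0.38, edgeR adjusted p = 0.233), Atp6v1a at 0.64 (SE 0.29, edgeR adjusted p = 0.262) and Tpp1, a lysosomal aminopeptidase, at 0.62 (SE 0.32, edgeR adjusted p = 0.343). Mitf was at 1.25 (SE 0.51, edgeR adjusted p = 0.213), and all 8 keratinocyte markers had a negative estimate in Ecad females, with a median of −4.85 and none called. Ecad females are the same tumours as in the comparison of genotypes in females, so the directions of both comparisons share that group. In ΔEcad tumours edgeR gave 38 of 40 lower in females, with a median of −0.41 against −0.06 over all genes, and 0.0395% of all genes were called. Without ΔEcad male 2, the library with Xist and no Y-linked counts, 34 were lower and the median was −0.22. Over all ΔEcad tumours all 10 macrophage markers had a lower estimate in females, with a median of −0.97. The lowest and highest macrophage scores were those of ΔEcad female 3 and ΔEcad male 7. Of 8 melanocytic markers 6 were lower, and all 8 keratinocyte markers were higher, with a median of 1.87. None of these markers was called.

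The members lowest in p there were Lipa at −1.52 (SE 0.48), Npc2 at −0.86 (SE 0.28) and Ctsz, a carboxypeptidase, at −0.90 (SE 0.31), each with an edgeR adjusted p of 0.484. Lipa had a median of 132 TPM (51.4 to 205) in ΔEcad females and Npc2 one of 352 TPM (285 to 531). On log2(TPM + 1) the split was 21 lower and 19 higher, with a median of −0.06 against 0.15 over all genes, so the direction over the members in ΔEcad tumours was not kept on that scale. Under edgeR without the 4 libraries that stand apart 33 were lower, with a median of −0.36. Gpnmb was at −0.12 in Ecad and −0.19 in ΔEcad tumours, Ctsk at −0.94 and −0.43 and Atp6v0d2 at 0.17 and −0.75, none called.

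The interaction term, the genotype difference in females minus that in males, was negative for 36 of 40 members, with a median of −0.61 against −0.16 over all genes. It was called for no member and for 0% of all genes, whose smallest adjusted p was 0.0509. That 0% rested on ΔEcad female 3, without which 3.52% of all genes and no member were called, and on the scaling, since median-ratio size factors called 201 genes. Ctsb was at −1.70 (SE 0.53, edgeR adjusted p = 0.0782), Ctsd at −1.98 (SE 0.63, edgeR adjusted p = 0.0851) and Lipa at −2.06 (SE 0.67, edgeR adjusted p = 0.0907). DESeq2 called these 3, with adjusted p of 0.0274, 0.0356 and 0.0439, and 6.91% of all genes, so that 3 of 40 members (7.5%) is near that background. Under edgeR Gpnmb was at −0.07, Ctsk at 0.51 and Atp6v0d2 at −0.92, none called. Among the 4 MiT/TFE factors 3 had a negative and 1 a positive estimate, and none was called. On log2(TPM + 1) 28 of 40 members were negative, with a median of −0.19 against 0.18 over all genes. All 8 keratinocyte markers had a positive estimate, with a median of 6.63 and none called. Without covariates 9 of 40 members had an unadjusted p under 0.05, against 17.7% of all genes. With keratinocyte, melanocytic and macrophage scores as covariates 37 members were negative, in place of 36, with a median of −0.55, in place of −0.61. With them 10 members had an unadjusted p under 0.05, and the share and median of all genes in that fit are not given here.

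**Figure D3:**
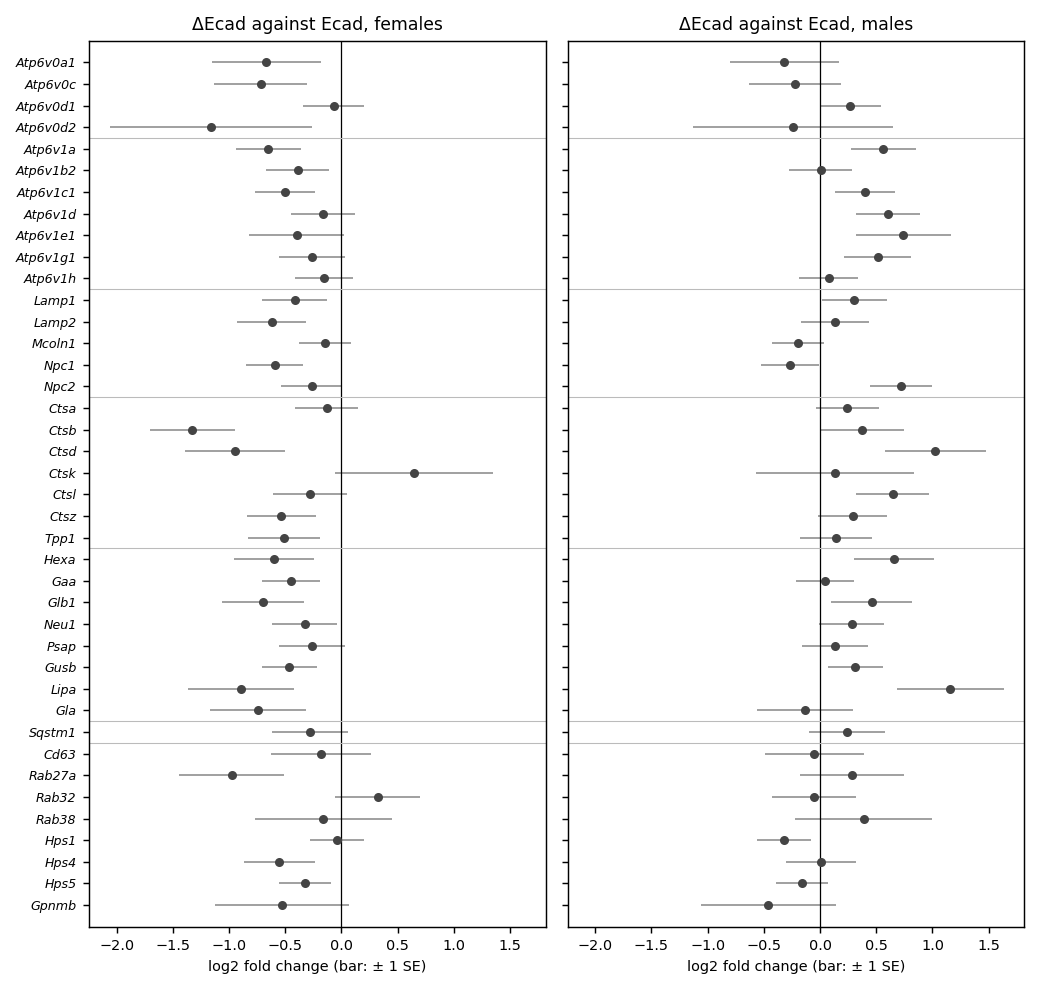
Log2 fold change of ΔEcad against Ecad from edgeR for the 40 members, females on the left and males on the right, with bars of 1 SE. In females 38 of 40 points lie below 0, and in males 29 of 40 lie above 0.

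The relation to Mitf was fitted across all 32 tumours with the 4 groups as coefficients, as a slope in log2 units of the gene per log2 unit of Mitf CPM. Of the members 29 had a positive and 11 a negative slope, with a median of 0.13 against −0.0047 over the 17716 genes tested, and none passed the test. Of all genes 0.271% were called higher and 0.598% lower. At an unadjusted p under 0.05 there were 9 positive members and 1 negative, 10 of 40 against 16.7% of all genes. All 11 V-ATPase members had a positive slope, 5 of them at an unadjusted p under 0.05, with a median of 0.22. Without ΔEcad male 7 there were 9 positive slopes and 2 negative, with a median of 0.11, and 1 positive slope had an unadjusted p under 0.05. Within the other 7 ΔEcad males 7 of the 11 were negative. Ecad female 2 had the highest Mitf, at 590 TPM. Without it and ΔEcad male 7, the 2 tumours farthest from the median of Mitf, 9 slopes were positive and 2 negative. Their median was 0.07, and 0 positive slopes had an unadjusted p under 0.05. Over all 32 tumours the proteases had 2 positive and 5 negative slopes.

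Because no member was called, those with the smallest p are named here after their values were seen. Rab27a, the GTPase that ties melanosomes to actin through melanophilin and myosin Va (ENSMUSG00000032202, chr9:73044854-73097629, plus strand, GRCm38), had a slope of 0.54 (SE 0.15, edgeR adjusted p = 0.0786). Ecad males had 45.8, 91.6 and 206 TPM (lowest, median and highest) and ΔEcad males 2.44, 89.4 and 174. Ecad females had 74.4, 142 and 401 TPM and ΔEcad females 24.5, 77.6 and 128. The lowest tumour was ΔEcad male 7 in both Rab27a and Mitf. The slope was positive within each group, at 0.72 for Ecad males, 0.18 for Ecad females, 0.58 for ΔEcad females and 1.48 for ΔEcad males (0.21 without ΔEcad male 7). Over all groups without ΔEcad male 7 it was 0.37 (edgeR adjusted p = 0.105), and without the 4 libraries that stand apart 0.41 (edgeR adjusted p = 0.0492). Rab27a was called by DESeq2 (adjusted p = 0.0058), by limma voom (adjusted p = 0.0023) and by limma on log2(TPM + 1) (adjusted p = 0.0032), which called 2.29%, 6.76% and 0.508% of all genes higher. The gene overlaps Gm27186.

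Among the V-ATPase genes, Atp6v1c1 had a slope of 0.26 (SE 0.09, edgeR adjusted p = 0.130), Atp6v1a 0.27 (SE 0.10, edgeR adjusted p = 0.169) and Atp6v0d2 0.79 (SE 0.35, edgeR adjusted p = 0.263). Gusb, the beta-glucuronidase gene, had 0.22 (SE 0.08, edgeR adjusted p = 0.180). Gpnmb was at 0.15 (SE 0.25, edgeR adjusted p = 0.822) and Ctsk at −0.12 (SE 0.26, edgeR adjusted p = 0.862). Without ΔEcad male 7 the members split into 22 positive and 18 negative slopes with a median of 0.01, and 3 positive members had an unadjusted p under 0.05. Within groups, 9 members had a positive slope in all 4 and 1 in none, and without ΔEcad male 7 these counts were 3 and 2. With the macrophage score in the same fit 29 members were again positive and none was called, against 0.333% of all genes higher and 0.717% lower, and Rab27a was at 0.55 (edgeR adjusted p = 0.0610). Keratinocyte markers had a median slope on Mitf of −1.50, fibroblast markers −0.44 and melanocytic markers 0.39. With keratinocyte and fibroblast scores as further covariates 28 members were positive, with a median of 0.09, and 5 positive members had an unadjusted p under 0.05 in place of 9.

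**Figure D4:**
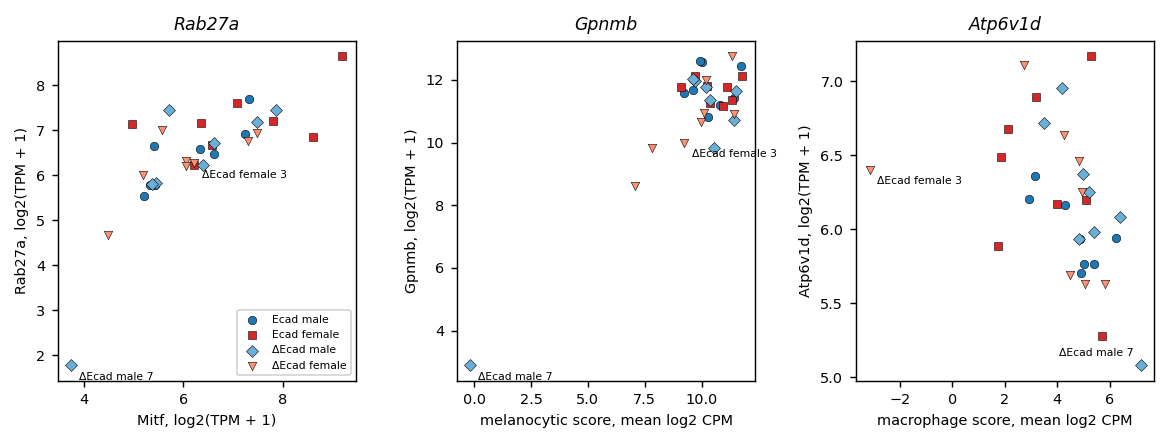
Left, Rab27a against Mitf, both as log2(TPM + 1); middle, Gpnmb as log2(TPM + 1) against the melanocytic score; right, Atp6v1d as log2(TPM + 1) against the macrophage score. Each point is 1 of 32 tumours, coloured by group, and the labelled ΔEcad male 7 lies alone at low Rab27a (2.44 TPM) and low Gpnmb (6.46 TPM).

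The melanocytic score in place of Mitf gave more calls. With it, 16 members were called higher and none lower, against 2.02% of all genes higher and 1.51% lower, and 37 of 40 slopes were positive, with a median of 0.17 against 0.00 over all genes. The 16 comprised 7 of 11 V-ATPase members, 4 melanosome genes, 2 of sugar and lipid breakdown and 1 each of the proteases, the membrane group and the autophagy receptor. Rab38 led with 0.71 log2 units per unit of the score (SE 0.09, edgeR adjusted p = 1.36e-05), followed by Rab27a at 0.48 (edgeR adjusted p = 0.000779), Atp6v1b2 at 0.23 (edgeR adjusted p = 0.000787), Atp6v0a1 at 0.37 (edgeR adjusted p = 0.000898) and Gpnmb at 0.74 (SE 0.13, edgeR adjusted p = 0.00169). ΔEcad male 7 lay alone at the low end of the score.

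Without ΔEcad male 7, 9 members were called higher and none lower, against 2.59% of all genes higher and 1.15% lower, and 34 slopes were positive with a median of 0.24 against −0.03 over all genes. There were 7 members called both with and without that tumour, which is 43.8% of the 16 and 77.8% of the 9. The 9 were led by Sqstm1, which tethers ubiquitinated cargo to autophagosomes, at 0.50 (edgeR adjusted p = 0.00053), Atp6v0a1 at 0.68 (edgeR adjusted p = 0.00102), the tetraspanin gene Cd63 at 0.67 (edgeR adjusted p = 0.00114), Rab38 at 0.67 (edgeR adjusted p = 0.00675) and Glb1, a beta-galactosidase gene, at 0.48 (edgeR adjusted p = 0.00901). Of the V-ATPase members 3 were called, in place of 7. Gpnmb was at 0.42 (edgeR adjusted p = 0.111) without that tumour, and its slope within groups was 0.10 for Ecad males, −0.01 for Ecad females, −0.12 for the other 7 ΔEcad males and 0.82 for ΔEcad females.

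The levels and within-group slopes of 3 of the 9 follow. Rab38 had a lowest, median and highest TPM of 49.96, 126 and 168 for Ecad males, 52.2, 89.3 and 280 for Ecad females, 0.79, 91.6 and 364 for ΔEcad males and 34.8, 91.8 and 314 for ΔEcad females. Its slope within groups was 0.57, 0.55, 0.75 (without ΔEcad male 7, 0.70 with it) and 0.62. Sqstm1 had medians of 941 TPM (636 to 1754), 1341 (673 to 2046), 1047 (443 to 1586) and 1087 (436 to 1754) in the same order of groups, and slopes of 0.58, 0.47, 0.64 (without ΔEcad male 7, 0.18 with it) and 0.45. Atp6v0a1, a V0 subunit that spans the membrane, had medians of 286 TPM (154 to 575), 288 (140 to 638), 155 (35.7 to 735) and 163 (95.6 to 455), and slopes of 0.76, 0.61, 0.97 (without ΔEcad male 7, 0.29 with it) and 0.55. Over the 32 tumours 24 members had a positive slope on the melanocytic score within all 4 groups and 0 in none, and without ΔEcad male 7 these counts were 23 and 1. Genes of the score are no members of the 40, and the score counts both how much of a tumour is melanocytic and how strongly its cells express those markers.

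**Figure D5:**
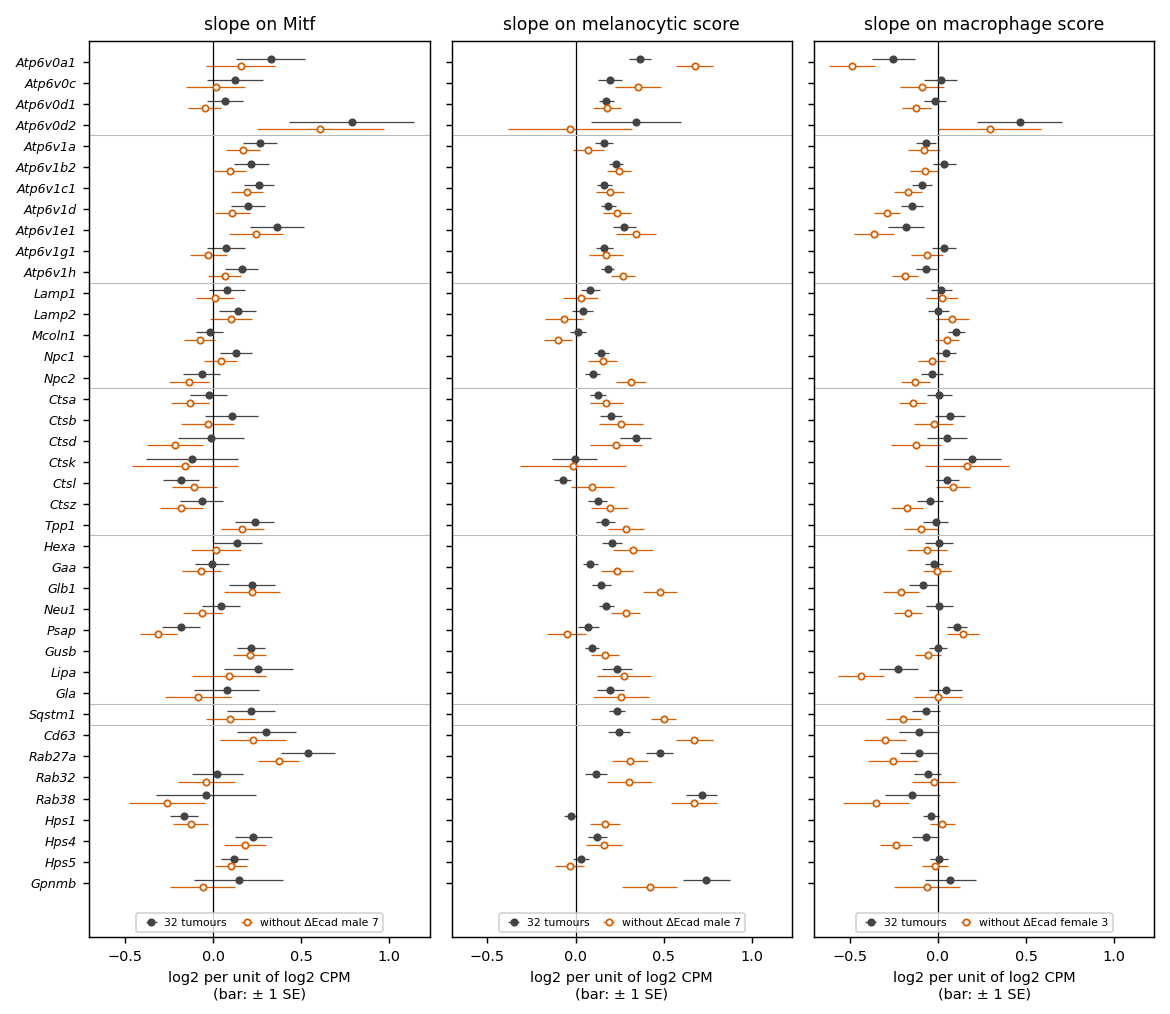
Slopes of the 40 members on Mitf (left), on the melanocytic score (middle) and on the macrophage score (right), in log2 units per unit of log2 CPM with bars of 1 SE. Filled points use all 32 tumours and open points leave out ΔEcad male 7 (left and middle) or ΔEcad female 3 (right); on the macrophage score 20 of 40 filled and 9 of 40 open points lie above 0.

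The macrophage score, the mean log2 CPM of 10 marker genes, had no common direction over the members. Slopes were positive for 20 and negative for 20, with a median of −0.01 against 0.00 over all genes, and none was called, although 4.85% of all genes were called higher and 1.53% lower. Unadjusted p under 0.05 occurred in 1 member of each sign, 2 of 40 against 22% of all genes. These were Atp6v1d, a subunit of the V1 rotor, at −0.14 (SE 0.06, edgeR adjusted p = 0.166) and Mcoln1 at 0.10 (edgeR adjusted p = 0.205). Atp6v0d2 was at 0.46 (SE 0.24, edgeR adjusted p = 0.259), Ctsk at 0.20 (SE 0.16, edgeR adjusted p = 0.510) and Gpnmb at 0.07 (SE 0.15, edgeR adjusted p = 0.811).

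ΔEcad female 3 decided these values in part. Without it 3 members were called lower and none higher, against 1.33% of all genes lower and 4.5% higher, and 31 of 40 slopes were negative, with a median of −0.09 against 0.00 over all genes. Without all 4 libraries that stand apart no member was called, 25 slopes were negative and the median was −0.03, so the calls depended on other libraries too. The 3 called without ΔEcad female 3 alone were Atp6v1d at −0.29 (SE 0.07, edgeR adjusted p = 0.0165), Atp6v0a1 at −0.49 (SE 0.13, edgeR adjusted p = 0.0204) and Lipa at −0.44 (SE 0.13, edgeR adjusted p = 0.0450). Atp6v1d had a lowest, median and highest TPM of 51.2, 60.4 and 81.0 for Ecad males, 37.9, 80.7 and 143 for Ecad females, 32.9, 71.03 and 123 for ΔEcad males and 48.5, 79.5 and 137 for ΔEcad females, and its lowest value was that of ΔEcad male 7, which had the highest macrophage score. Within groups no member had a positive slope in all 4 and 4 had one in none, and without ΔEcad female 3 these counts were 1 and 10. With Mitf in the same fit no member was called, against 4.58% of all genes higher and 1.56% lower, and Atp6v1d was at −0.14 (edgeR adjusted p = 0.148).

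Other genes of these pathways were read from lists made beside the members. Of all genes 4.85% were called higher and 1.53% lower on the macrophage score, and 0.271% and 0.598% on Mitf. A list with 1 called gene is not set apart from such shares. Of 14 further V-ATPase subunits 12 were tested, and Tcirg1, the a3 subunit known from osteoclasts and macrophages, was called on the macrophage score at 0.22 (SE 0.07, edgeR adjusted p = 0.0409), with 11 of the 12 slopes positive. Atp6v1b1, a V1 subunit of kidney and inner ear epithelia, was at −1.56 on Mitf (SE 0.45, edgeR adjusted p = 0.0800) and at 0.96 on the macrophage score (edgeR adjusted p = 0.161), and Atp6v0a4 was at −1.08 on Mitf (edgeR adjusted p = 0.181). On the positive side of Mitf Atp6v0a2 and Atp6v1g2 were at 0.04 and 0.07, and Atp6v0a2 was the 1 subunit with a negative slope on the macrophage score, at −0.03. Of 31 further hydrolases 1 was called on the macrophage score, the macrophage protease gene Ctss at 1.06 (SE 0.17, edgeR adjusted p = 9.84e-05), followed by Lgmn at 0.20 (edgeR adjusted p = 0.0534) and, on the negative side, Scpep1 at −0.30 (edgeR adjusted p = 0.0726) and Hgsnat at −0.25 (edgeR adjusted p = 0.233). On Mitf Hgsnat was at 0.46 (edgeR adjusted p = 0.224) and Scpep1 at 0.37 (edgeR adjusted p = 0.287), with 20 of 31 slopes positive and none called, and Pla2g15 was among the negative ones at −0.31.

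Of 17 further membrane proteins 2 were called higher on the macrophage score, against 4.85% of all genes. They were Laptm5 at 0.74 (SE 0.09, edgeR adjusted p = 9.97e-07) and Cd68 at 0.72 (SE 0.12, edgeR adjusted p = 9.35e-05), both known from leukocytes, whereas Laptm4a and Laptm4b were at −0.07 and −0.05. On Mitf none of the 17 was called, with Mfsd8 at 0.18, the chloride transporter gene Clcn7 at 0.19, the channel gene Tpcn2 at −0.20 and Laptm5 at −0.35. Of 20 further melanosome trafficking genes none was called on either measure. On Mitf 15 of the 20 were positive, led by Vps41 of the HOPS tethering complex at 0.19 (SE 0.06, edgeR adjusted p = 0.0905) and Vps33a at 0.17 (edgeR adjusted p = 0.160), with Bloc1s1 at −0.20 and Snapin at −0.07. On the macrophage score 17 of the 20 were negative, with Ap3b1 at −0.10 and Dtnbp1 at −0.07 against Bloc1s1 at 0.08 and Hps3 at 0.07. Among the MiT/TFE factors Tfec was called on the macrophage score at 0.61 (SE 0.09, edgeR adjusted p = 2.77e-05), whereas Tfe3 was at 0.05 and Tfeb at −0.06. On Mitf Tfeb was at 0.20 (edgeR adjusted p = 0.583), Tfe3 at −0.12 and Tfec at −0.25. Median levels were 76.7 TPM for Mitf, 33.2 for Tfeb, 21.5 for Tfe3 and 1.17 for Tfec.

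After the fits, 9 pairs of members were chosen whose products are known to work together or to stand in for each other. They were compared over the 32 tumours as log2 values, with p from 100000 two-sided permutations adjusted over the 9 pairs. The permutations shuffled all 32 tumours without regard to group, and unrelated pairs of genes were not compared. These p-values therefore do not show whether a correlation is particular to partners. Lamp1 and Lamp2, the main glycoproteins of the lysosomal membrane, gave r = 0.58 (permutation adjusted p = 0.0030) and rho = 0.57 (permutation adjusted p = 0.0058), r was 0.52 without the 2 tumours farthest from the median, and it was positive in all 4 groups. Atp6v1a and Atp6v1b2, which form the catalytic ring of the pump, gave r = 0.57 (permutation adjusted p = 0.0030) and rho = 0.52 (permutation adjusted p = 0.0076), with r at 0.34 without the 2 farthest tumours. The partners in the lysosomal multienzyme complex gave r = 0.51 for Ctsa and Neu1 (permutation adjusted p = 0.0086), 0.44 for Neu1 and Glb1 (permutation adjusted p = 0.0275) and 0.40 for Ctsa and Glb1 (permutation adjusted p = 0.0468), with rho of 0.43, 0.53 and 0.38 (permutation adjusted p = 0.0269, 0.0075 and 0.0505), so the last pair missed 0.05 by rank. Without the 2 farthest tumours these were 0.40, 0.37 and 0.43, and Neu1 and Glb1 gave −0.56 within Ecad females.

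Rab32 and Rab38 gave r = 0.36 (permutation adjusted p = 0.0587) and rho = 0.52 (permutation adjusted p = 0.0075), with r at 0.52 without ΔEcad male 7. The BLOC-3 subunits Hps1 and Hps4 gave r = −0.09 (permutation adjusted p = 0.808), from 0.60 within Ecad males to −0.77 within ΔEcad males. Npc1 and Npc2 gave r = 0.07 (permutation adjusted p = 0.812) and the alternative V0 subunits Atp6v0d1 and Atp6v0d2 gave r = 0.04 (permutation adjusted p = 0.815). Correlations over the 4 groups also carry differences between tumours in cell content, which they share with every other pair.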

How the data were processed

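RNA of 32 tumours (8 per group) was poly(A)-selected and sequenced as paired reads from a stranded kit. The authors aligned reads with STAR to mm10 with GENCODE M13, checked them with FastQC 0.11.5 and deposited raw counts per gene and TPM. A batch correction with ComBat is described as applied where needed, without saying whether it was applied here, and the deposited counts are whole numbers. Symbols came from GENCODE M21 (GRCm38), which paired 50376 of 50600 identifiers. Promoter windows came from RefSeq (GRCm38.p6).

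The 17717 genes kept by edgeR's expression filter were fitted with TMM scaling and edgeR's quasi-likelihood test (edgeR 4.0.16, R 4.3.3) over all 32 tumours with 1 coefficient per group, p-values adjusted by Benjamini-Hochberg over all genes. Slopes were called at an adjusted p under 0.05, and group differences needed in addition a log2 fold change beyond 1 in either direction, as in the study. Slopes on Mitf, on the macrophage score and on the melanocytic score used log2 CPM with a prior count of 1, and genes of a score were left out of its fit. DESeq2 1.42.0, limma 3.58.1 (voom, and log2(TPM + 1)) and other filters and scalings were alternatives. Fold changes on log2(TPM + 1) understate the change of low genes.

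The members and lists were chosen with earlier results of these data known. The text names, for each slope, the 5 called members with the smallest p in each direction, and for each group comparison the 3 members with the smallest unadjusted p. From each other list it names the 2 genes lowest in p on either side of 0. Gpnmb, Ctsk and Atp6v0d2 are named for each group comparison and for the slopes on Mitf and the macrophage score. Tfeb, Tfe3 and Tfec are named for females and those slopes, and Mitf for females, males and Ecad tumours. Genes named beyond this rule were chosen after their values were seen. A gene that the rule would name is not reported here. Whether the 8 tumours of a group came from separate animals is not given in the labels, so p-values measure the spread between these samples. The fits were also run on simulated data. A log2 difference of 2 in ΔEcad females was called in 65% of the genes given it, and a Mitf slope of 0.5 in 35%. Smaller sizes, such as the members' median estimates, were not simulated. Of the members 19 overlap another gene, and Atp6v0c and Cd63 have annotated pseudogenes, so their counts are uncertain where reads could be shared. Same-numbered tumours of different groups did not deviate together.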

Additional observations from a re-analysis of the deposited data

Results flagged for a closer look

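Values of each member, Mitf and the macrophage and melanocytic scores were screened in each group of 8 tumours. The keratinocyte, fibroblast, endothelial and osteoclast scores were not screened. A tumour was flagged where its gap to its nearest neighbour, as a share of the group's range, exceeded Dixon's 95% criterion. Of 172 groups of values 15 held such a tumour, and chance gives about 1 in 20. No explanation was tested for them.

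The tumour ΔEcad male 7 gave 9 of the 15, all low. In log2 CPM it stood at 3.68 for Gpnmb, 1.54 for Rab27a, −1.30 for Rab38, 8.22 for Ctsd, 10.6 for Ctsb, 6.03 for Atp6v1a, 6.47 for Atp6v1b2 and 4.55 for Mitf, with a melanocytic score of −0.16. Its Ctsl, at 3839 TPM, was the highest of the 32 tumours, so the low values did not extend to every protease.

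ΔEcad female 3 had the low macrophage score of −3.16. Single members stood out in other tumours. Neu1 was high in Ecad female 5 at 7.00 and Cd63 was high in Ecad female 6 at 11.9, whereas Npc1 was low in Ecad female 8 at 6.95, Gla in ΔEcad female 4 at 2.00 and Rab27a in ΔEcad female 2 at 4.97.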

How the results depend on the processing

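No member was called in any of the 5 group comparisons or 4 slope fits with edgeR, and no result changed direction past the threshold. Calls under other choices follow as numbers of members, beside the percentage of all genes called. DESeq2 called 1 in females (7.23%), 3 for the interaction (6.91%), 2 on Mitf (6.66%) and 1 on the macrophage score (16.6%), and in the joint fit 3 on Mitf (8.09%) and 1 on the macrophage score (17%). On Mitf, alone and with the macrophage score, limma voom called 3 and 3 (12.3% and 11.3%), no filter on low counts 1 and 1 (1.32% and 1.01%), no group coefficients 3 and 3 (9.85% and 9.99%), log2(TPM + 1) 4 and 4 (0.739% and 0.853%), the melanocytic score in its place 16 and 18 (3.54% and 3.5%), and that score without ΔEcad male 7 9 and 9 (3.73% and 2.35%). With 40 members, 1 is 2.5% and 3 are 7.5%, so the calls by DESeq2, limma voom and the fit with no group coefficients were near or below those shares. Without the 2 tumours farthest from the median macrophage score 2 were called on it (5.86%). Without the 4 libraries that stand apart, chosen after seeing the data, 1 was called on Mitf (1.98%), and 1 on each measure in the joint fit (3.22% and 4.87%). Leaving out 1 of those libraries gave 0 to 1 in females, with 1 without ΔEcad male 7 (2.43%). On Mitf it gave 0 to 1, with 1 without ΔEcad male 2 (0.87%). On the macrophage score it gave 0 to 3, with 3 without ΔEcad female 3 (5.83%). In the joint fit it gave 0 to 1 on Mitf, with 1 without ΔEcad female 3 (0.686%) and 1 without ΔEcad male 2 (0.982%). On the macrophage score of the joint fit it gave 0 to 2, with 2 without ΔEcad female 3 (4.91%). The cause was not tested. The TPM fits of the group comparisons and the melanocytic fit without ΔEcad male 7 were also added after seeing the data.

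The replicate block called 0 members in every fit. The numbers did not pair the tumours: deviations of same-numbered tumours correlated at −0.547 to 0.423 over 48 pairs, and 1 of 32 tumours was closest to its own number.

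A missed threshold does not show that a member did not differ. Single low values rest on few counts, such as Rab38 at 0.79 TPM in ΔEcad male 7, with 16 counts in a library of 37132333.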
